A study of Homo sapiens with 6 samples.

Results

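Transcript levels of 10 genes of the TGF-beta pathway were examined in human multiple myeloma lines that had received a miR-10a mimic: the ligand TGFB1, the receptors TGFBR1 and TGFBR2, the signal transducers SMAD2, SMAD3 and SMAD4, the inhibitory SMAD7, the pseudoreceptor BAMBI, and the corepressors SKI and SKIL. The genes were taken by symbol from the array's probe annotation, which named 7 of the 10, among 14884 named genes in all. TGFB1, TGFBR1 and TGFBR2 had no named probe set, so neither the ligand nor its receptors were analysed here. Each of the 7 genes had 1 named probe set, so the rule of taking the probe set with the highest mean over all 6 arrays chose nothing among them. BAMBI and SKIL had already been singled out for their mimic changes in an earlier analysis of these arrays, and their values here are not independent of that choice.

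The cells were RPMI8226, KMS11 and U266, established lines of malignant human plasma cells. Each line was transfected with HiPerFect reagent carrying a mimic of miR-10a or, in the control group, a scrambled RNA, each at 100 nM, and RNA was taken 48 h later. Both groups therefore underwent transfection, and no untransfected array was used here. There was 1 array (Human Gene 2.0 ST) per line and treatment, which made 3 mimic arrays and 3 control arrays, or 2 arrays per line. The design asks which transcripts differ when miR-10a is supplied in excess, and it also lets the lines be compared with each other. The 2 arrays of a line carry different treatments, so their spread includes any difference made by the mimic. Independent cultures of a line are not described in the labels, and no line had repeat arrays of 1 treatment. The rest of that spread may therefore be technical. In 1 field the labels spell the first line RPI8226.

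TGF-beta signals through a pair of receptor kinases. The ligand is released from a latent complex and binds TGFBR2, which activates TGFBR1, and TGFBR1 then phosphorylates SMAD2 and SMAD3. These join SMAD4 and regulate genes in the nucleus. In many cells SMAD7 and SKIL are themselves induced by the pathway and restrain it, SMAD7 at the receptor and SKIL, like SKI, as a corepressor bound to SMADs on DNA. BAMBI resembles a type I receptor but lacks the kinase domain. In the bone marrow, TGF-beta restrains B lineage cells, and myeloma cells often respond to it weakly.

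The sequence of the agent is shown because the treatment rests on it, and the promoters of SMAD7, SKIL and BAMBI because they hold the letters of the SMAD box; the boxes were not tested against any expression difference. The mature 5p arm of miR-10a, as RefSeq gives it (GRCh38.p14, chr17:48579904-48579926, minus strand), is printed with its seed, bases 2 to 8, in capitals. Which sequence the commercial mimic carries is not given in the sources used here.
hsa-miR-10a-5p: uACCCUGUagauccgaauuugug

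The 250 bases before the RefSeq start nearest to the 5′ end of the gene (GRCh38.p14) follow for SMAD7 (chr18:48950966-48951215, minus strand), SKIL (chr3:170357465-170357714, plus strand) and BAMBI (chr10:28677271-28677520, plus strand). Capitals mark the SMAD box, CAGAC, or GTCTG where it lies on the other strand.
SMAD7 promoter: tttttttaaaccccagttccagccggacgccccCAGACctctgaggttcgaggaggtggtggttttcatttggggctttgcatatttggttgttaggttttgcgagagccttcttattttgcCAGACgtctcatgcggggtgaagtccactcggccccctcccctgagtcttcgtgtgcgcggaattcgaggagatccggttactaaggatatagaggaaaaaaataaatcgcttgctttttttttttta
SKIL promoter: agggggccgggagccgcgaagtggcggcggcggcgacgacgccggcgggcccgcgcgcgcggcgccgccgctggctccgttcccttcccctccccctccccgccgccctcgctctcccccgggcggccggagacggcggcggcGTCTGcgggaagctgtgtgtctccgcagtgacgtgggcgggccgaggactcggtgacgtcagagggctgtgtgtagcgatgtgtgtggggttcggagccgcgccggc
BAMBI promoter: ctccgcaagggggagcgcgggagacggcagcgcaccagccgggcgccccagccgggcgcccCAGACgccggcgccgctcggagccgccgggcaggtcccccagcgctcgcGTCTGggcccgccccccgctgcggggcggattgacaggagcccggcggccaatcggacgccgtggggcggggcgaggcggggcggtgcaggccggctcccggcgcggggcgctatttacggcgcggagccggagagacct

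The SMAD7 and BAMBI windows held 2 SMAD boxes each and the SKIL window held 1. For SMAD7, 2 of its 3 RefSeq starts had a window with a box. The corresponding windows of SMAD2, SMAD3 and SMAD4 held 0, although 2 of the 5 RefSeq starts of SMAD3 had a window with a box. Of 35116 RefSeq windows of the same length, 38.0% held at least 1 box and 8.8% at least 2, so these counts describe letters and no binding was measured. The palindrome of GTCT followed by AGAC was in 0 of the 6 windows and in 0.18% of all windows. SKI had no entry in the promoter table.

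Values are the deposited log2 units, on which 1 unit is a doubling. Differences were tested between arrays for 1 gene at a time. Values of different genes were set side by side only for the filter and to call genes low or high on the array. Array medians lay between 3.61 and 3.66. Genes with a mean of at least 4.70, the median of the named genes, were tested, which kept 7442 genes. BAMBI, SKIL, SMAD2, SMAD4 and SMAD7 passed this filter, and SKI (mean 4.36) and SMAD3 (mean 3.60) did not, so the last pair was tested in a fit of all 14884 named genes. The files hold no detection calls, so whether a low value stood above background is unknown. The filter used the mean over all arrays, so a gene that passed could still lie under 4.70 in a single line. Of genes named below, this was so for MYC (4.68), SMAD1 (3.94) and TGIF1 (4.06) in U266. It was also so for NRROS in KMS11 (4.50) and LTBP1 in RPMI8226 (3.36), and BAMBI in RPMI8226 was at the cut (4.71). The plasma cell regulators IRF4 and XBP1 were high in every array, at 10.26 to 10.89 and 9.34 to 9.65. CD38, a plasma cell surface marker, reached 9.90 and 9.99 in RPMI8226 but 3.80 to 4.92 in the other lines, and SDC1 lay between 5.52 and 9.49. The 7 named markers of T cells, myeloid cells, stroma and B cells lay between 1.98 and 4.24 in all arrays, and 0 of them passed the filter.

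For each of the 7 genes, the highest and the lowest line mean lay farther apart than the 2 arrays of any line, whereas neighbouring lines were closer for some genes. KMS11 and U266 differed by less than that gap for SKI, and KMS11 and RPMI8226 for SMAD3. All 5 genes above the filter differed over the 3 lines in limma's F test (adjusted p at most 0.000416), where 82.4% of all tested genes did, so the count itself is near what any gene list gives. SKI and SMAD3 also passed in the fit of all named genes (adjusted p = 0.00301 and 0.0104), where 50.8% passed. Taken pair by pair, all 5 genes above the filter were called between KMS11 and RPMI8226, where 65.0% of tested genes were, between KMS11 and U266 (63.8%), and between RPMI8226 and U266 (67.4%). In the fit of all named genes, SKI alone of the low pair was called between KMS11 and RPMI8226 (36.8% of all genes), SMAD3 alone between KMS11 and U266 (37.1%), and both between RPMI8226 and U266 (39.0%). The median distance between the highest and the lowest line mean was 1.05 log2 units for the 5 genes, against 0.77 for all tested genes. KMS11 had the highest mean for 6 of the 7 genes, SKI being the exception, and for 33.4% of all named genes. Above the filter it was highest for all 5 listed genes and for 34.4% of all tested genes. The order KMS11, RPMI8226, U266 from high to low held for SMAD2, SMAD3, SMAD4, SMAD7 and SKIL. It held for 16.7% of all tested genes and for 17.6% of all named genes. In RNA from whole cultures, fewer cells that express a gene and less RNA per cell cannot be told apart.

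**Figure D1:**
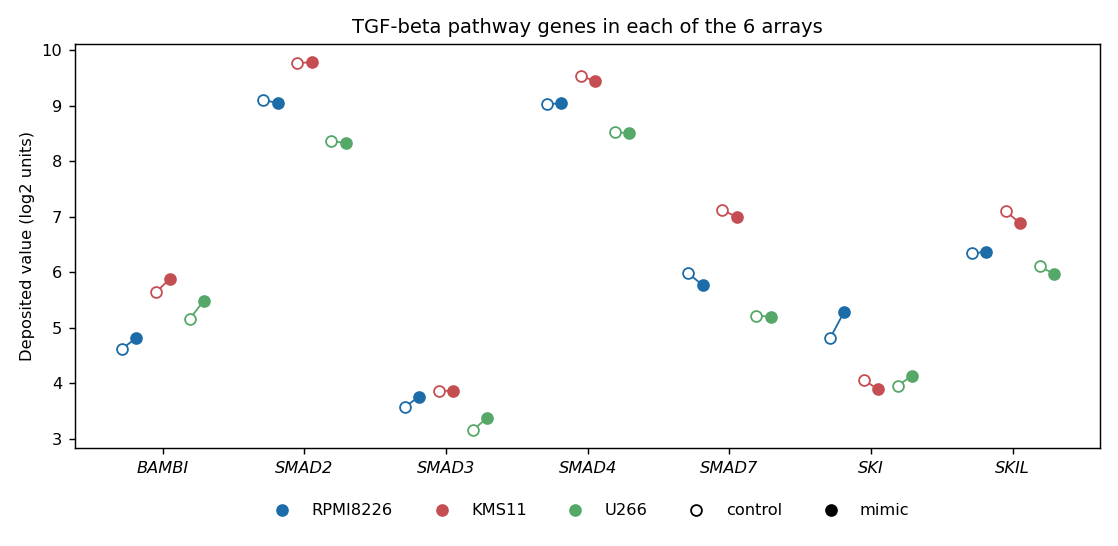
Deposited log2 values (vertical axis) of the 7 named genes in all 6 arrays, with open circles for control, filled circles for mimic and a thin line joining the arrays of 1 cell line. The colours separate clearly for SMAD2, SMAD4 and SMAD7, where the pairs of a line differ by at most 0.20, and KMS11 is highest for every gene but SKI. Arrays of different lines overlap for SKI alone, between KMS11 and U266.

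SMAD2, a receptor-activated transducer of the TGF-beta signal, stood at 9.10 (control) and 9.05 (mimic) in RPMI8226, 9.77 and 9.78 in KMS11, and 8.36 and 8.33 in U266. The arrays of the 3 lines did not overlap. KMS11 exceeded U266 by 1.43 ± 0.0784 (SE, 2 arrays per line), or 2.69-fold, with limma's adjusted p = 4.13e-05. RPMI8226 lay between, 0.70 below KMS11 and 0.73 above U266 (adjusted p = 0.000523 and 0.00042).

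SMAD3, the closest relative of SMAD2, was low on this array, at 3.58 and 3.76 in RPMI8226, 3.87 and 3.86 in KMS11, and 3.16 and 3.38 in U266. KMS11 exceeded U266 by 0.59 ± 0.109 (SE; limma's adjusted p = 0.00642), and RPMI8226 exceeded U266 by 0.40 (adjusted p = 0.0291). KMS11 and RPMI8226 were not separated, with a difference of 0.20 and a 95% confidence interval from -0.07 to 0.46. The difference between KMS11 and U266 missed the threshold without the KMS11 control array (limma's adjusted p = 0.0629). That between RPMI8226 and U266 missed it without the RPMI8226 control (0.0889), the RPMI8226 mimic (0.142), the U266 control (0.172) or the U266 mimic array (0.0627), and with a variance trend (0.0619). Without the U266 control array, SMAD3 also missed the F test over the 3 lines (limma's adjusted p = 0.0722), which left 6 of the 7 genes called.

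SMAD4, the common partner of the activated SMADs, stood at 9.03 and 9.04 in RPMI8226, 9.53 and 9.45 in KMS11, and 8.53 and 8.50 in U266. Its order was that of SMAD2, again with no overlap between lines. KMS11 exceeded U266 by 0.97 ± 0.0797 (SE; limma's adjusted p = 0.000169), or 1.97-fold, and RPMI8226 by 0.45 (adjusted p = 0.00348). RPMI8226 exceeded U266 by 0.52 (adjusted p = 0.00177).

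SMAD7, the feedback inhibitor that blocks the receptors, had the widest spread of the 7 genes. It stood at 5.98 and 5.77 in RPMI8226, 7.12 and 7.00 in KMS11, and 5.22 and 5.20 in U266. KMS11 exceeded U266 by 1.85 ± 0.0862 (SE), or 3.61-fold (limma's adjusted p = 2.3e-05), and RPMI8226 by 1.18, or 2.27-fold (adjusted p = 0.000101). RPMI8226 exceeded U266 by 0.67 (adjusted p = 0.000878).

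The pseudoreceptor BAMBI followed another order. Its values were 4.62 and 4.81 in RPMI8226, 5.64 and 5.88 in KMS11, and 5.16 and 5.49 in U266. KMS11 was highest again, but RPMI8226 and not U266 was lowest: KMS11 exceeded RPMI8226 by 1.05 ± 0.083 (SE), or 2.07-fold (limma's adjusted p = 0.000134). U266 exceeded RPMI8226 by 1.53-fold (adjusted p = 0.00108) and lay 0.44 below KMS11 (adjusted p = 0.00488).

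The corepressors SKIL and SKI were high in different lines. SKIL stood at 6.35 and 6.36 in RPMI8226, 7.10 and 6.89 in KMS11, and 6.11 and 5.97 in U266. KMS11 exceeded U266 by 0.95 ± 0.0911 (SE; limma's adjusted p = 0.000306) and RPMI8226 by 0.64 (adjusted p = 0.00144). The step from U266 to RPMI8226 was 0.32 (adjusted p = 0.0226). It was lost without the RPMI8226 mimic (0.135), the U266 control (0.0712) or the U266 mimic array (0.0972), and when all named genes were tested (0.0604).

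SKI, by contrast, was highest in RPMI8226, at 4.81 and 5.29, against 4.06 and 3.89 in KMS11 and 3.96 and 4.14 in U266. RPMI8226 exceeded KMS11 by 2.11-fold and U266 by 2.00-fold (limma's adjusted p = 0.00287 and 0.00358 over all named genes). KMS11 and U266 overlapped, with a difference of -0.07 and a 95% confidence interval from -0.47 to 0.32. That uncalled difference was 0.18 without the KMS11 mimic array. The 2 arrays of RPMI8226 were 0.48 apart, the widest such gap among the 7 genes.

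**Figure D2:**
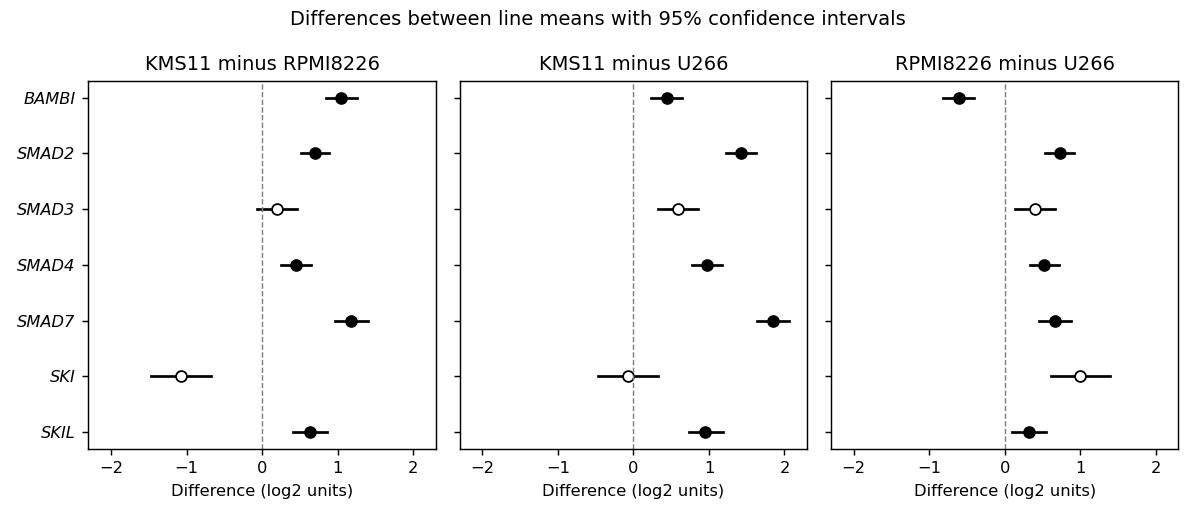
Differences between line means in log2 units (horizontal axis) for the 3 pairs of lines, with 95% confidence intervals from limma over 2 arrays per line. Filled points are genes above the filter and open points are SKI and SMAD3, fitted over all named genes. Most points for KMS11 lie to the right of 0, while SKI lies at -1.08 against RPMI8226.

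SMAD2, SMAD7 and SMAD4 lie near each other on chromosome 18, which the choice of genes did not use, and 10 tested genes lie between them in RefSeq order. The tested genes around them were therefore set beside them as a description, a step added after the data were seen. KMS11 exceeded U266 by a median of 1.43 for the 3 SMAD genes, 0.19 for the 10 genes between them and 0.25 for the 20 nearest tested genes outside. For the 108 tested genes of the chromosome other than the 3, which include these 30 neighbours, the median was 0.30. KMS11 was higher for 74.1% of the 108 and for 70.0% of the 30. For all tested genes the median was 0.04, with 53.0% higher. Against RPMI8226 the neighbours were closer to the 3 SMAD genes: KMS11 was higher by a median of 0.70 for the 3, 0.41 for the genes between them and 0.62 for those outside, against 0.20 for the chromosome and 0.04 for all tested genes. The order of KMS11, RPMI8226 and U266 seen in the 3 genes held for 7 of the 30 neighbours, or 23.3%. It held for 27.8% of the chromosome's tested genes without the 3, and for 16.7% of all tested genes. MEX3C, an RNA-binding ubiquitin ligase gene beside SMAD4, and SETBP1, a gene of a nuclear SET-binding protein, were 2.62 and 2.55 higher in KMS11 than in U266. DCC, a netrin receptor gene, was the widest in the other direction, at 5.93 in KMS11 and 10.68 in U266. These 3 neighbours were named after their values were seen. Copy number was not measured here.

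**Figure D3:**
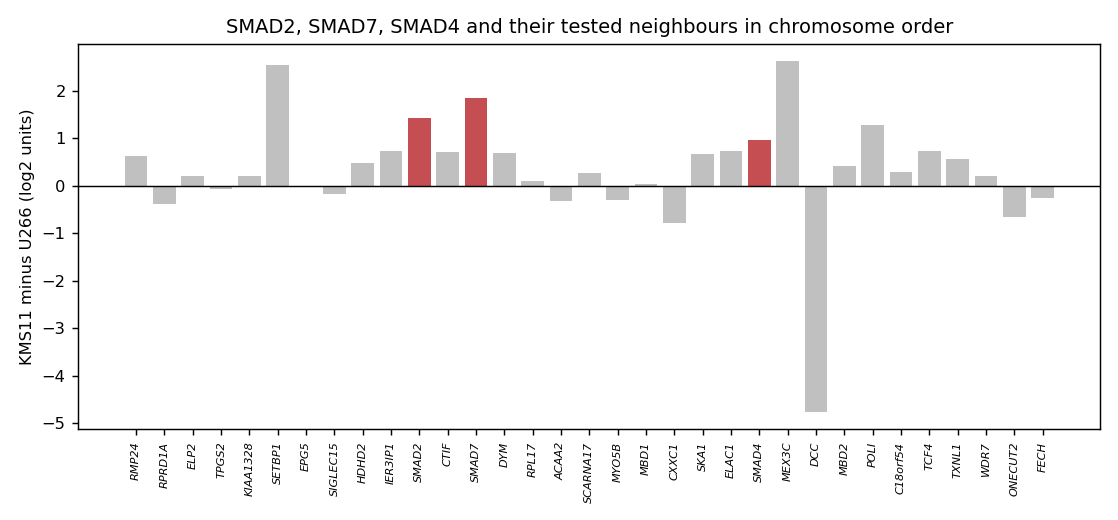
KMS11 minus U266 line means in log2 units (vertical axis) for the 3 SMAD genes (red) and 30 tested genes between and beside them (grey), in chromosome order and not to genomic scale; each bar is a difference between means of 2 arrays. The red bars stand at 1.43, 1.85 and 0.97, while the genes between them lie on either side of 0.

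Genes with the most similar 6-array profile were listed for the 3 genes with the widest line range, by root mean square difference of centred log2 values over the 6 arrays. For SMAD7 they were ZNF280C (0.080), FBXO11 (0.097) and KLF9 (0.105), out of 6796 other protein-coding genes. The first, a zinc finger gene, averaged 7.49 in RPMI8226, 8.75 in KMS11 and 6.99 in U266. For SMAD2 they were IMPACT (0.054), ZBTB7B (0.071) and ANKRD17 (0.072). For SKI they were GAGE13 (0.111), CDC25A (0.129) and LUC7L (0.131). The arrays come from only 3 lines, so many genes share any such profile, and GAGE13 belongs to a family of near-identical copies whose probe sets are uncertain.

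No listed gene was called for the miR-10a mimic. With the cell line as a block, limma called 0 of the 5 genes above the filter and 0 of the 2 below it, and 0% of all tested genes. At an unadjusted p under 0.05 there were 403 of 7442 genes with limma, 402 with a plain paired test per gene and 2 with limma without the block. Of the 7 listed genes, BAMBI alone was below that level with limma and with the paired test, and 0 were without the block. The median mean change of the 5 genes was -0.03 log2 units, against -0.0029 for all tested genes.

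BAMBI had higher values with the mimic in each of the 3 lines, with differences of 0.33 for U266, 0.24 for KMS11 and 0.19 for RPMI8226. The mean change was 0.25 ± 0.07 (SD of 3 lines), or 1.19-fold, with limma's adjusted p = 0.889 and an unadjusted p of 0.00998. The 95% confidence interval, not corrected for the number of genes, ran from 0.09 to 0.42. Among all tested genes, 62 had an unadjusted p at or under that of BAMBI, and 80 rose by sign in every line with a mean change at least as wide. The change did not pass under any alternative tried, with adjusted p-values from 0.759 to 1 when 1 line was left out.

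SMAD7 and SKIL had lower means with the mimic, and BAMBI and SKI had higher ones, none past the threshold. SMAD7 gave -0.20 for RPMI8226, -0.11 for KMS11 and -0.02 for U266, with a mean of -0.11 ± 0.09 (SD of 3 lines; limma's adjusted p = 0.917), with a 95% confidence interval from -0.29 to 0.06. SKIL gave 0.01, -0.22 and -0.14 in the same order of lines, a mean of -0.12 ± 0.11 (adjusted p = 0.917), with an interval from -0.30 to 0.07.

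SMAD2 and SMAD4 had the smallest mean changes of the 7 genes, and neither was called. SMAD2 gave -0.04 for RPMI8226, 0.0047 for KMS11 and -0.03 for U266, and SMAD4 gave 0.01, -0.07 and -0.03. The 95% confidence intervals ran from -0.18 to 0.13 for SMAD2 and from -0.19 to 0.13 for SMAD4 (limma's adjusted p = 0.976 and 0.967).

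The genes below the filter were less even across lines. SMAD3 gave 0.19 for RPMI8226, -0.01 for KMS11 and 0.22 for U266, with a mean of 0.13 ± 0.13 (SD of 3 lines; limma's adjusted p = 0.967 over all named genes). SKI gave 0.48, -0.17 and 0.19, a mean of 0.17 ± 0.32 (adjusted p = 0.967), which was 0.01 without RPMI8226 and 0.34 without KMS11. The interval for SKI, from -0.16 to 0.49, was the widest of the 7. For comparison, the SD of the change over all named genes was 0.21 for KMS11 and 0.22 for each of the other lines. Whether 1 line's change differed from that of the other lines was tested with a separate term for that line. No listed gene passed (smallest limma adjusted p = 0.814, for SKI in the fit of all named genes). Such a fit has 1 residual degree of freedom. Over the 7442 genes above the filter, which leave out SKI and SMAD3, it called 0% for any line. It therefore does not show that the lines responded alike.

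**Figure D4:**
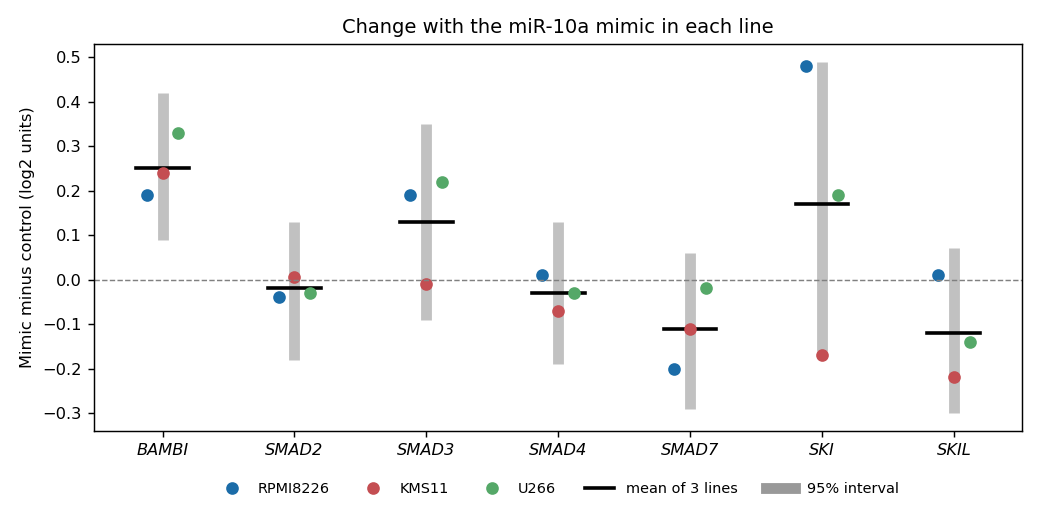
Mimic minus control in log2 units (vertical axis) for the 7 named genes: coloured points are the 3 lines, black bars their mean and grey bars limma's 95% confidence interval, not corrected for the number of genes. Only for BAMBI (0.09 to 0.42) does the grey bar clear 0, and its adjusted p is 0.889.

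The rest of the pathway was taken from lists of genes grouped by textbook role, 108 symbols beside the 10, of which 64 were named and 36 passed the filter. Over the 3 lines, 28 of the 36 passed limma's F test, again near the 82.4% of all tested genes, and their median line range was 0.84. KMS11 was significantly above RPMI8226 for 16 and below it for 6, where 35.6% and 29.4% of all tested genes were. Against U266, KMS11 was higher for 13 and lower for 9 (34.0% and 29.8% of all tested genes). Between RPMI8226 and U266, 13 were higher in RPMI8226 and 10 lower (32.4% and 35.1%). The order KMS11, RPMI8226, U266 held for 9 of the 36, and for 16.7% of all tested genes. With the mimic, limma called 0 of the 36 (smallest adjusted p = 0.902), 19 were higher and 17 lower by sign, and the median change was 0.01. The tested genes named in the paragraphs that follow were picked from each list by their line range or mean mimic change. Their p-values come from the same values and are not independent of that choice.

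Among ligands, 3 of 5 tested genes differed between lines in limma's F test, which 82.4% of all tested genes passed. BMP6, a bone morphogenetic protein, averaged 7.45 in U266 against 5.65 in RPMI8226 and 5.70 in KMS11 (limma's F test, adjusted p = 3.65e-05). GDF11, an activin-like ligand, was high in KMS11 instead, at 6.95 against 5.21 and 5.18 in RPMI8226 and U266 (adjusted p = 2.74e-05). BMP8B ranged over 0.72 (adjusted p = 0.000978), while GDF15 ranged over 0.49 and did not pass (0.0819).

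Of the latency and activation genes, 5 of 7 tested genes passed the F test, where 82.4% of all tested genes did. LTBP1, which tethers latent TGF-beta to the matrix, stood at 3.31 and 3.42 in RPMI8226, 6.72 and 6.90 in KMS11, and 9.43 and 9.45 in U266. The line means spanned 6.08 log2 units (limma's F test, adjusted p = 9.11e-07), with RPMI8226 at the low end of the scale. NRROS, which holds latent TGF-beta on myeloid cells, was highest in RPMI8226 and lowest in KMS11, averaging 7.20 in RPMI8226, 6.27 in U266 and 4.50 in KMS11 (adjusted p = 6.1e-05). FURIN, the protease that cleaves the precursor, averaged 5.59 in RPMI8226, 6.86 in KMS11 and 6.94 in U266 (adjusted p = 0.000126), and LTBP4 ranged over 0.65 (0.00118). Among the genes of this group above the filter, LTBP1 had the widest mean change of the same sign in all 3 lines with the mimic, 0.10 ± 0.08 (SD of 3 lines; limma's adjusted p = 0.917).

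Of the other SMADs, both tested genes differed between lines, as did 82.4% of all tested genes. SMAD1, a transducer of bone morphogenetic protein signals, averaged 5.95 in KMS11, 5.22 in RPMI8226 and 3.94 in U266, the order of SMAD2 (limma's F test, adjusted p = 0.000184). SMAD5, which acts beside SMAD1, had U266 highest at 6.96 and RPMI8226 lowest at 6.24 (adjusted p = 0.000786), and its mimic change was -0.09 ± 0.06 (SD of 3 lines; adjusted p = 0.917). Of the other receptors only ENG and ACVRL1 were named, both below the filter, with single arrays between 3.89 and 4.44.

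Regulators of receptors and SMADs passed the F test for 11 of 14 tested genes, near the 82.4% of all tested genes. HIPK2, a nuclear kinase that binds corepressors, averaged 6.63 in RPMI8226 against 10.26 in KMS11 and 10.68 in U266 (limma's F test, adjusted p = 1.71e-06). The coactivator CREBBP had the order of SMAD2, at 10.92 in KMS11, 9.76 in RPMI8226 and 9.35 in U266 (limma's F test, adjusted p = 5.92e-05). The repressor TGIF1 had it too, at 5.48, 4.91 and 4.06 (0.000398), as did 16.7% of all tested genes. SMURF2, a ubiquitin ligase that SMAD7 brings to the receptors, was highest in U266 at 6.88 and lowest in RPMI8226 at 5.56 (0.000179). With the mimic, the ubiquitin ligase genes WWP1 and TRIM33 had lower values in every line, with means of -0.09 ± 0.01 and -0.04 ± 0.03 (SD of 3 lines; limma's adjusted p = 0.917 and 0.962).

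Among target genes, 7 of 8 tested genes differed between lines, near the 82.4% of all tested genes, and without a common order. MYC, which TGF-beta represses in many cell types, averaged 10.79 in RPMI8226, 9.19 in KMS11 and 4.68 in U266 (limma's F test, adjusted p = 2.76e-06). ATF3, a stress-induced factor, averaged 8.32 in KMS11, 7.39 in RPMI8226 and 4.95 in U266 (1.33e-05). ZEB1, a repressor of epithelial genes, had the same order at 7.37, 6.75 and 6.21 (0.00015), whereas JUNB was lowest in KMS11 at 7.13, against 8.63 in RPMI8226 and 8.50 in U266 (0.000116). With the mimic, IL11, a cytokine gene, gave 0.17 ± 0.06 and KLF11 0.06 ± 0.04, each higher by sign in all 3 lines (SD of 3 lines; limma's adjusted p = 0.902 and 0.926).

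**Figure D5:**
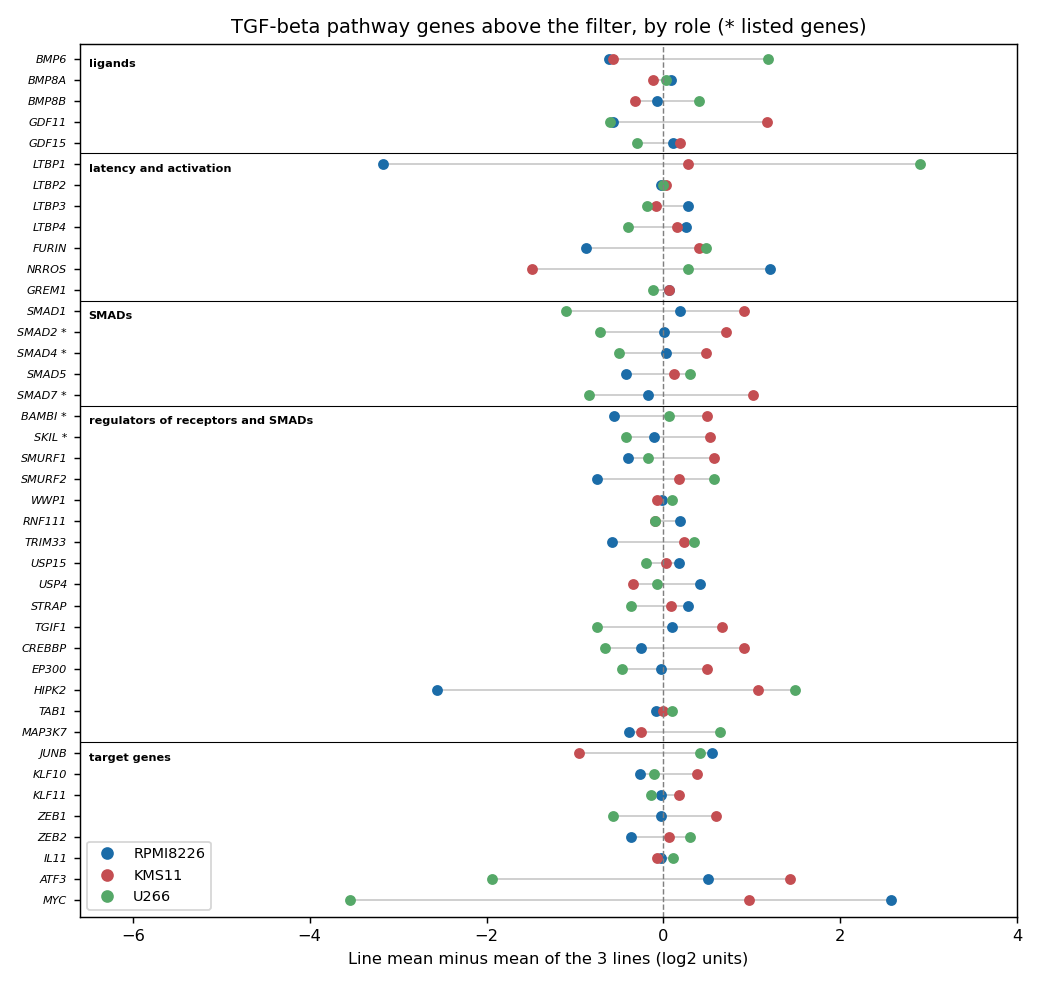
Line means minus the mean of the 3 lines in log2 units (horizontal axis) for the 41 pathway genes above the filter, grouped by role; stars mark the listed genes and each point averages 2 arrays. KMS11 lies farthest right for all 5 starred genes, while LTBP1 and MYC span over 6 units.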

How the data were processed

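The values are log2 expression units as deposited by the authors, for 53617 probe sets on 6 arrays. The submitters' processing notes name Affymetrix Expression Console 1.3.0. How background was corrected, how arrays were normalized or centred, and which genome build was used is not given in the sources used here. The platform annotation gave 1 symbol for 16098 probe sets, several for 0, and left 37519 unnamed here; all 16098 gene identifiers matched the RefSeq table (GRCh38.p14). Per gene, the probe set with the highest mean was used.

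Limma 3.58.1 under R 4.3.3 (lmFit, eBayes without trend) was fitted over all tested genes with cell line and treatment as terms (2 residual and 3.82 prior degrees of freedom; 4.12 prior in the fit of all named genes). P-values were two-sided and Benjamini-Hochberg adjusted over all genes, separately for each contrast, with a threshold of 0.05. The scripts were tested on simulated data. The cell line label pairs the arrays: deviations of a line's arrays from their treatment means correlated at 0.967 to 0.97. Arrays of a line correlated at 0.992 to 0.993, those of different lines at 0.715 to 0.779. No arrays held identical values, and their number limits the precision. Promoter letters come from RefSeq. Genes and lists were chosen with earlier results of these data known. Named were the listed genes and, per list, up to 4 genes with the widest line range and up to 2 with the widest mean change of the same sign in every line.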

Additional observations from a re-analysis of the deposited data

How the results depend on the processing

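The values were recomputed with no filter, with the upper 25% of genes by mean level, with array medians centred, after quantile normalization, with the mean of all probe sets of a gene, with a variance trend, without the treatment term or the cell line, with a plain paired test, and with each line or array left out. Without the replicate block by cell line, 0 listed genes were called for the mimic, as with it. All 71 recomputed mimic changes of single genes kept their sign and stayed uncalled. With a variance trend, another filter, no block or the paired test, the estimate is the same by construction, and only its p-value can move. The mean of all probe sets also left these genes' values as they were, since none had several. Only centring, quantile normalization and leaving out a line could therefore change the sign of a mimic change. Of 255 recomputed line differences, 244 kept their sign and their side of the threshold and 10 lost it, all for SKIL or SMAD3. The remaining one, KMS11 minus U266 for SKI, was uncalled and turned from -0.07 to 0.18 without the KMS11 mimic array (range over single arrays left out -0.32 to 0.18). Many line differences were also fixed by construction. A variance trend, another filter, the mean of probe sets or no treatment term could not alter them. Leaving out an array of a line outside the compared pair could not do so either. With the upper 25% of genes, 3 listed genes instead of 7 and 3474 genes instead of 6135 were called between lines, since fewer were tested. Of the listed genes only SMAD2, SMAD4 and SKIL remained in that filter, and all 3 were called. The drop in these counts is therefore not a drop in the share called. Without detection calls, the low values of SKI and SMAD3 have no known distance from background.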
